A study of Mus musculus with 4 samples.

Results

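The genes described here encode the mouse MHC class II molecules, their invariant chain and the factors that serve them: Cd74, H2-Aa, H2-Ab1, H2-Eb1, H2-DMa, H2-DMb1, H2-DMb2, H2-Oa, H2-Ob and Ciita. They form a list of gene symbols, and a gene was read from the probe set annotated with its symbol alone, the brightest such probe set where there were several. Of the 10 genes, 8 had such a probe set, out of 19938 genes on the array. H2-DMb1 and H2-DMb2 share a single probe set annotated with both symbols and therefore had no value of their own.

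MHC class II molecules present peptides from endosomes to CD4 T cells. Their alpha and beta chains assemble on the invariant chain CD74, which fills the peptide groove until proteases degrade it in late endosomes. There H2-M, a dimer of the H2-DMa and H2-DMb products, exchanges the remaining fragment for peptide, and H2-O, a dimer of the H2-Oa and H2-Ob products, restrains H2-M. Transcription of these genes depends on CIITA, a coactivator recruited by the RFX, CREB and NF-Y factors bound to the X and Y boxes of their promoters. B cells, dendritic cells and macrophages carry most class II, and mouse T cells, unlike activated human T cells, are known to make little of it.

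Total RNA was hybridised to 4 Affymetrix arrays, 2 of CYLD KO and 2 of WT regulatory T (Treg) cells. The CYLD KO cells came from C57Bl6 mice carrying Cyld fl/fl and Foxp3-yfp-cre, and the WT cells from C57Bl6 mice carrying Cyld+/+ and the same Foxp3-yfp-cre allele. All animals were 6 to 8 weeks old. Cre and yellow fluorescent protein (YFP) are expressed from Foxp3, the defining transcription factor of Treg cells, so both groups were sorted as YFP-positive cells and Cyld was removed only where Foxp3 had been active. CYLD is a deubiquitinase that restrains NF-kB signalling. The labels name spleen with lymph nodes in one place and spleen alone in another, and nothing says whether replicates came from separate mice or pools. The p-values below therefore rest only on the spread between these samples, averaged over genes.

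The deposited values are linear intensities, with array medians of 103 and 99.0 in CYLD KO and 101 and 105 in WT, and 2 arrays per group limit the precision. Differences were tested with limma on log2(intensity + 1) over 13956 genes whose mean was above the 30th percentile, and a gene was called at a Benjamini-Hochberg adjusted p under 0.05. The variance estimate was pooled over all genes, so every log2 fold change below has the same standard error of 0.17, whatever the spread of that gene's own replicates. Cyld read 284 and 218 in CYLD KO and 524 and 502 in WT, with a log2 fold change of -1.04 (adjusted p = 8.96e-08). Markers of the labelled cell type were present in both groups, Foxp3 at 1697 and 1553 in CYLD KO and 2016 and 1881 in WT, and Cd4 at 2169 and 1974 in CYLD KO and 2033 and 1818 in WT. Knockout replicate 2 stood apart from the other arrays in Y-linked transcripts: Kdm5d read 268 and 127 on knockout replicates 1 and 2, and 271 and 275 in WT. Xist, the transcript of the inactive X chromosome, read 1630.2 and 2321 in CYLD KO and 1306 and 1403 in WT. Results that depend on that array are given without it below.

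Promoter stretches of these genes are shown first. Of the 7 genes read, 4 held the same arrangement of motifs, with X box letters chosen after their windows had been read. Of those 4 genes, only H2-Eb1 and H2-Ob had a probe set of their own. Whether the arrangement bears on the changes below was not tested. RefSeq promoter windows of build GRCm38.p6, from 250 bases before to 50 after the transcription start, were read for 7 of the 10 genes. No window was available for H2-Ab1 or Ciita, and Cd74, which lies on another chromosome, was left out. Cd74 was not among the genes with the arrangement described in the next paragraph. The stretches below are 60 bases long, run 5′ to 3′ on the coding strand and lie on chromosome 17. Capitals mark ATTGG, the core of the Y box (CCAAT on the other strand), and, where present, AACNNATGA, letters of the X box that were chosen after these windows had been read.
H2-Eb1: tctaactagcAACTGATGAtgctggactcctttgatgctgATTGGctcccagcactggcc
H2-DMb1: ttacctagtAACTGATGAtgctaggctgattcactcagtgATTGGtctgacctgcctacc
H2-DMb2: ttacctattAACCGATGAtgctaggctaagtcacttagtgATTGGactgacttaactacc
H2-Ob: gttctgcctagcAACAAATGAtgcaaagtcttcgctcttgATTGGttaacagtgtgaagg
H2-Aa: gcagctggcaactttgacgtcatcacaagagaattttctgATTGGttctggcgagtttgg
H2-Oa: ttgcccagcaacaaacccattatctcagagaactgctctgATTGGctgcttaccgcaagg
On build GRCm38.p6 these are chr17:34305768-34305827 for H2-Eb1, chr17:34153090-34153149 for H2-DMb1, chr17:34145119-34145178 for H2-DMb2, chr17:34238808-34238867 for H2-Ob, chr17:34287852-34287911 on the minus strand for H2-Aa, and chr17:34092296-34092355 for H2-Oa, the others lying on the plus strand.

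H2-Eb1, H2-DMb1, H2-DMb2 and H2-Ob held AACNNATGA followed by ATTGG, with 19 to 22 bases between the end of the first and the start of the second. Searched on both strands, with up to 40 bases between them, this arrangement was in 0.125% of 32851 RefSeq promoter windows (41 windows, those of these genes included). Because AACNNATGA was chosen after reading the windows of these genes, that share is a description and no test of them. ATTGG alone was in 37.4% of windows and AACNNATGA alone in 2.85%. H2-Aa and H2-Oa held ATTGG but not AACNNATGA in these windows, which does not show that they lack an X box of other letters. H2-DMa had 2 windows, of which the upstream one held neither and the downstream one held ATTGG alone. These are matches of letters, and no binding was measured in this study.

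In the CYLD KO cells the invariant chain gene rose most, the H2-M alpha chain gene and the beta chain genes of I-A and I-E rose less, and the H2-O beta chain gene fell. Of the 7 tested members 4 were higher (Cd74, H2-DMa, H2-Eb1 and H2-Ab1) and 1 was lower (H2-Ob), where 4.79% of all tested genes were higher, 3.5% lower and 8.3% either. H2-Aa and H2-Oa did not pass, and Ciita lay below the low-intensity filter. The median log2 fold change of the 7 tested members was 0.57, and that of all 8 with a probe set was 0.51, against -0.02 over all genes tested. Both CYLD KO arrays were above both WT arrays in 5 of the 7, which held for 22.5% of all tested genes, and below both in 1, which held for 26.2%. Because these are bulk samples, a change in the share of cells that carry a transcript and a change in its amount per cell cannot be told apart.

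**Figure D1:**
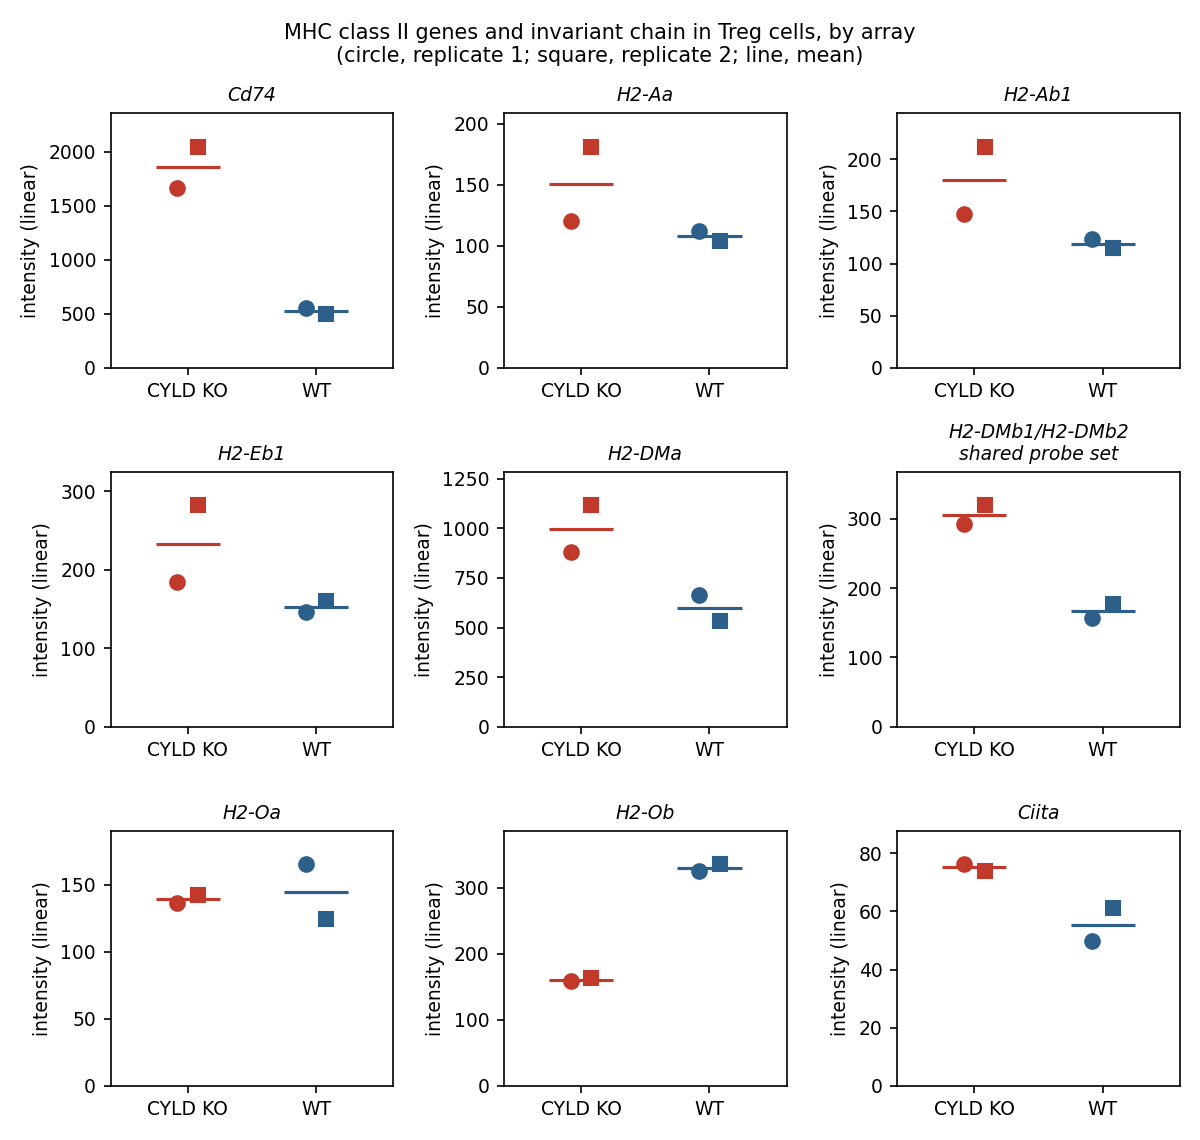
Linear intensity (vertical axes, each starting at 0) of 8 members and of the probe set shared by H2-DMb1 and H2-DMb2, in CYLD KO (left, red) and WT (right, blue) Treg cells; circles are replicate 1, squares replicate 2 and lines group means of 2 arrays. Cd74 reads 1667 and 2050 in CYLD KO, above 553 and 502 in WT, and H2-Ob reads 159 and 162 in CYLD KO, below 325 and 335 in WT.

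Cd74, which encodes the invariant chain that guides class II assembly and also serves as a receptor subunit for the cytokine MIF, read 1667 and 2050 in CYLD KO and 553 and 502 in WT. The groups lay far apart. The mean was 1859 ± 271 in CYLD KO and 528 ± 35.4 in WT (SD, n = 2 each), a 3.52-fold difference. The log2 fold change was 1.81, with a 95% interval of 1.48 to 2.14 (limma adjusted p = 8.05e-24), the 26th highest of the 13956 genes. Without any single array it stayed between 1.66 and 1.96, and the highest adjusted p was 4.73e-11. Such small values follow from the variance pooled over genes and do not stand for more than 2 arrays per group.

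The classical class II chains were higher as well, but less and less evenly. H2-Ab1, the I-A beta chain, read 147 and 212 in CYLD KO and 124 and 115 in WT. H2-Eb1, the I-E beta chain, read 184 and 282 in CYLD KO and 146 and 160 in WT. H2-Aa, the I-A alpha chain, read 120 and 181 in CYLD KO and 112 and 104 in WT. In each of these genes knockout replicate 1 lay just above the WT arrays and knockout replicate 2 well above them. The log2 fold changes were 0.57 (95% interval 0.23 to 0.90, adjusted p = 0.0147) for H2-Ab1 and 0.57 (0.24 to 0.90, adjusted p = 0.0133) for H2-Eb1. For H2-Aa the log2 fold change was 0.45 (0.12 to 0.78), which did not pass (adjusted p = 0.0820).

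The size of the change in the chains rested on knockout replicate 2. Without knockout replicate 2 the log2 fold changes were 0.30 for H2-Ab1 (adjusted p = 0.375), 0.26 for H2-Eb1 (0.463) and 0.15 for H2-Aa (0.711). Without knockout replicate 1 they were 0.83 for H2-Ab1, 0.88 for H2-Eb1 and 0.75 for H2-Aa, and all 3 passed, with H2-Aa at an adjusted p = 0.00169. Leaving out a WT array also ended the calls of the beta chains, but with log2 fold changes near those of all arrays. H2-Ab1 had 0.62 without WT replicate 1 (adjusted p = 0.168) and 0.51 without WT replicate 2 (0.316). H2-Eb1 had 0.51 without WT replicate 1 (adjusted p = 0.387) and 0.64 without WT replicate 2 (0.139). H2-Aa also passed after quantile normalization (adjusted p = 0.0477).

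The I-E molecule needs an alpha chain that C57Bl6 mice lack, and RefSeq lists H2-Ea as a transcribed pseudogene. H2-Ea read 85.7 and 79.0 in CYLD KO and 88.7 and 78.2 in WT, a log2 fold change of -0.02 with overlapping groups (adjusted p = 0.969). H2-Eb2, a further beta chain gene of the same region, read 93.4 and 106 in CYLD KO and 72.2 and 78.7 in WT, a log2 fold change of 0.40 that did not pass (adjusted p = 0.144). Of these 2 other class II genes, 0 were called by limma, and 1 had an unadjusted p under 0.05.

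The genes of the peptide exchange step moved unequally. H2-DMa, the alpha chain of H2-M, read 881 and 1115 in CYLD KO and 663 and 531 in WT. Its mean was 998 ± 166 in CYLD KO and 597 ± 93.4 in WT (SD, n = 2 each), a log2 fold change of 0.74 (95% interval 0.41 to 1.07, adjusted p = 4.49e-04). The groups did not overlap, and the call was lost without WT replicate 2 (log2 fold change 0.58, adjusted p = 0.208). The probe set shared by H2-DMb1 and H2-DMb2, the beta chains of H2-M, read 292 and 319 in CYLD KO and 156 and 178 in WT. It cannot be assigned to either gene. When probe sets with several symbols were added to the fit, a choice made after seeing the data, its log2 fold change was 0.87 (adjusted p = 1.56e-05, 14516 features tested).

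H2-Ob went the other way. This beta chain of H2-O, the inhibitor of H2-M, read 159 and 162 in CYLD KO and 325 and 335 in WT. The CYLD KO arrays lay well below the WT arrays, and replicates of each group were close together. The mean was 161 ± 2.23 in CYLD KO and 330.2 ± 7.49 in WT (SD, n = 2 each), a ratio of CYLD KO to WT of 0.487. The log2 fold change was -1.03 (95% interval -1.37 to -0.70, adjusted p = 1.16e-07), the 38th lowest of 13956 genes, and it stayed between -1.06 and -1.01 without any single array. H2-Oa, its alpha chain partner, read 136 and 142 in CYLD KO and 165 and 124 in WT, and the groups overlapped. For H2-Oa the log2 fold change was -0.04 with a 95% interval of -0.38 to 0.29 (adjusted p = 0.919).

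Ciita, the class II transactivator, read 76.3 and 74.1 in CYLD KO and 49.7 and 61.1 in WT. Both CYLD KO values were above both WT values, but the probe set was at the 18.4th percentile of mean intensity and was not tested. With no intensity filter its log2 fold change was 0.44 ± 0.17 (SE) and did not pass (adjusted p = 0.102). A level so near the bottom of the scale understates fold changes, and no detection calls were used here.

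**Figure D2:**
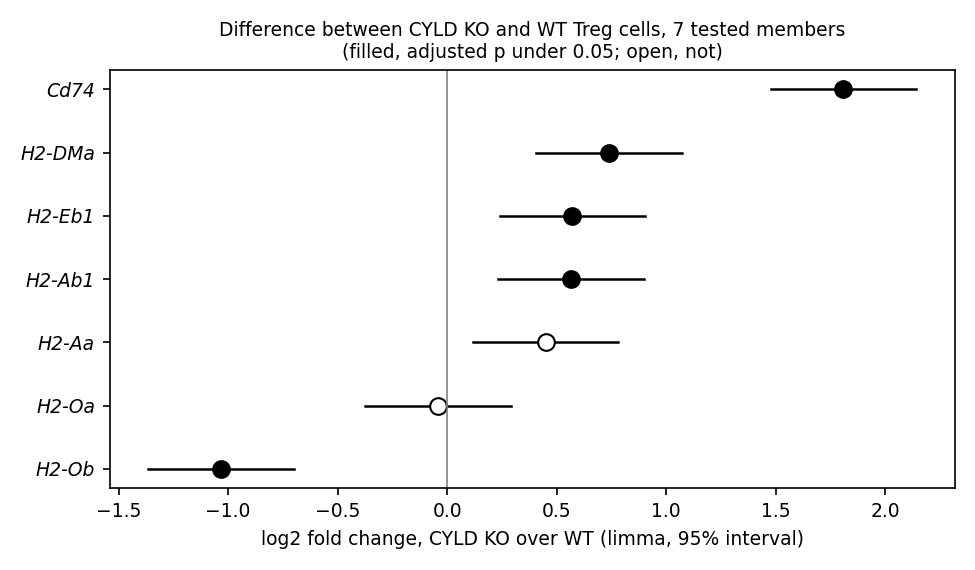
Log2 fold change of CYLD KO over WT (horizontal axis) with its 95% limma interval for the 7 tested members; filled points passed an adjusted p of 0.05 and open points did not. Cd74 at 1.81 lies apart from the chains and H2-DMa at 0.45 to 0.74, H2-Oa lies at -0.04, and H2-Ob lies at -1.03.

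The 95% interval of Cd74 (1.48 to 2.14) does not overlap that of any other tested member, the nearest being H2-DMa (0.41 to 1.07). The intervals of H2-DMa, H2-Eb1, H2-Ab1 and H2-Aa overlap one another. That of H2-Ob lies wholly below 0 and does not overlap the interval of H2-Oa. The interval of H2-Oa (-0.38 to 0.29) overlaps those of H2-Aa, H2-Ab1 and H2-Eb1. Overlap of intervals is not a test of a difference, and differences between members were not tested. Between the genotypes the members did not all move the same way: limma called 4 higher and 1 lower, and 2 did not pass. Of the 8 measured members, 6 had both CYLD KO arrays above both WT arrays, H2-Aa and Ciita included. Only 1, H2-Ob, had both below. Over all tested genes these shares were 22.5% and 26.2%.

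Among the 8 measured members the knockout arrays differed most in H2-Eb1, H2-Aa and H2-Ab1. All 7 tested members were higher on knockout replicate 2 than on replicate 1, where 46.2% of all tested genes were. The log2 difference was 0.59 for H2-Aa, 0.53 for H2-Ab1, 0.61 for H2-Eb1, 0.34 for H2-DMa and 0.30 for Cd74, 0.06 for H2-Oa and 0.03 for H2-Ob. Ciita, which was not tested, went the other way (-0.04). Over all tested genes the SD of that difference was 0.27, so H2-Oa, H2-Ob and Ciita lay well inside it. Cd74 and H2-DMa exceeded it by little, and the share of all genes beyond it was not counted. In WT 5 of the 7 were higher on replicate 1 than on replicate 2, where 52.1% of all tested genes were, and the largest log2 differences were 0.41 for H2-Oa and 0.32 for H2-DMa.

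**Figure D3:**
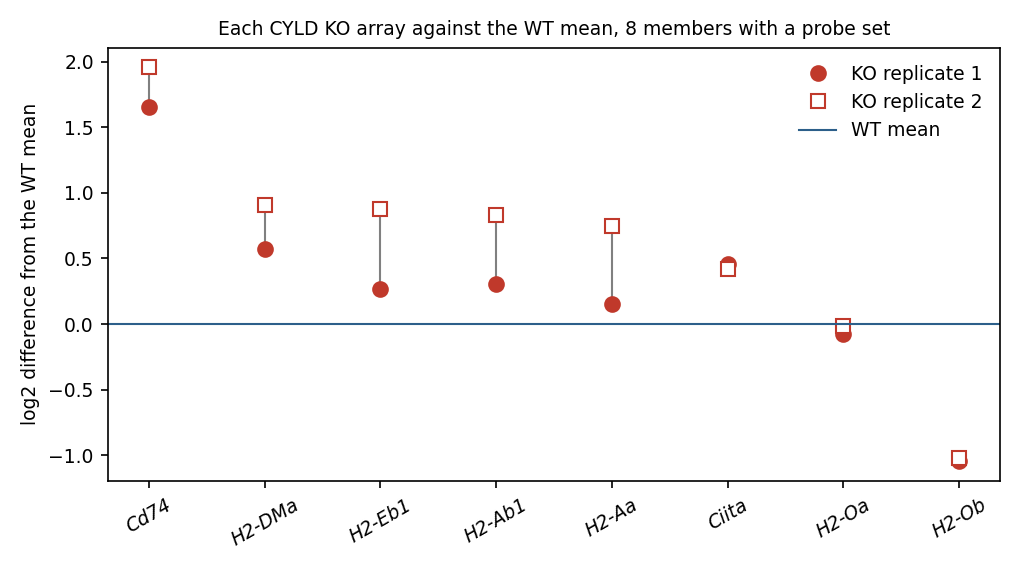
Log2 difference of each CYLD KO array from the mean of the 2 WT arrays (vertical axis) for the 8 members with a probe set; filled circles are knockout replicate 1, open squares knockout replicate 2, and the line at 0 is the WT mean. H2-Aa lies at 0.15 and 0.75, H2-Ab1 at 0.30 and 0.83 and H2-Eb1 at 0.26 and 0.88, whereas H2-Ob lies at -1.05 and -1.02.

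Cells that carry class II could be present in a sort, so lists of their markers were read on the same arrays. Of 12 tested B cell markers 0 were higher and 1 was lower, and the summed intensity of the 18 measured ones was 1859 and 1934 in CYLD KO and 1916 and 1945 in WT. The lower one was Cd72, a B cell inhibitory receptor, at 121 and 114 in CYLD KO and 191 and 184 in WT (log2 fold change -0.67, adjusted p = 0.00198). The call of Cd72 was lost without WT replicate 1 (adjusted p = 0.138) or WT replicate 2 (0.0743). Cd79b, a subunit of the B cell receptor, read 202 and 188 in CYLD KO and 273 and 259 in WT, and Bank1, a B cell scaffold protein, 158 and 177 in CYLD KO and 231 and 226 in WT. Ms4a1, which encodes CD20, read 62.6 and 50.1 in CYLD KO and 41.5 and 44.7 in WT, and Cd79a 57.3 and 50.4 in CYLD KO and 50.8 and 61.7 in WT; both were below the filter and were chosen after their values were seen. Cd72, Cd79b and Bank1 were the 3 of 18 markers with both CYLD KO arrays below both WT arrays, against 26.2% of all tested genes. Both were above in 7, against 22.5% of all tested genes. Among those 7, Ighm had a log2 fold change of 0.43 (adjusted p = 0.103), and the median of the 12 tested was 0.13. Without those 3, left out after their values were seen, the other 15 summed to 1378 and 1454 in CYLD KO and 1221 and 1275 in WT. Leaving out the lower 3 itself favours a higher CYLD KO sum. The sum of the 15 therefore cannot show whether B cell markers rose or fell. The sums of all 18, which include the lower 3, overlapped between the groups. The part of B cells in the values of Cd74, H2-DMa, H2-Ab1 and H2-Eb1 was not tested.

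Macrophage and monocyte markers were mostly lower in CYLD KO. Of 15 tested, 13 were lower and 1 was higher, and their median log2 fold change was -1.18. C1qb, a complement subunit, read 78.7 and 95.3 in CYLD KO and 292 and 219 in WT. Spic, the transcription factor of red pulp macrophages, read 53.4 and 67.2 in CYLD KO and 162 and 150 in WT. Csf1r, the receptor for macrophage colony-stimulating factor, read 73.6 and 102 in CYLD KO and 230 and 214 in WT. Slc40a1, an iron exporter, and Tlr7, an endosomal RNA sensor, had log2 fold changes of -1.39 and -1.41. The 5 genes had adjusted p-values from 5.31e-17 to 4.47e-13 and passed without any single array.

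The marker that was higher was Axl, a receptor tyrosine kinase that T cells can also express, at 1919 and 2061 in CYLD KO and 963 and 999 in WT. It was named after its value was seen. Without Axl the summed intensity of the 18 remaining markers was 1553 and 1931 in CYLD KO and 3697 and 3365 in WT; with Axl it was 3471 and 3993 in CYLD KO and 4661 and 4364 in WT. H2-Ob, the member that fell, moved in the same direction as most of this list, and Cd74, H2-DMa, H2-Ab1 and H2-Eb1 in the opposite direction. The B cell markers Cd72, Cd79b and Bank1 also had both CYLD KO arrays below both WT arrays, and 7 of the 18 had both above. The part of macrophages or of B cells in the value of H2-Ob was not tested.

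**Figure D4:**
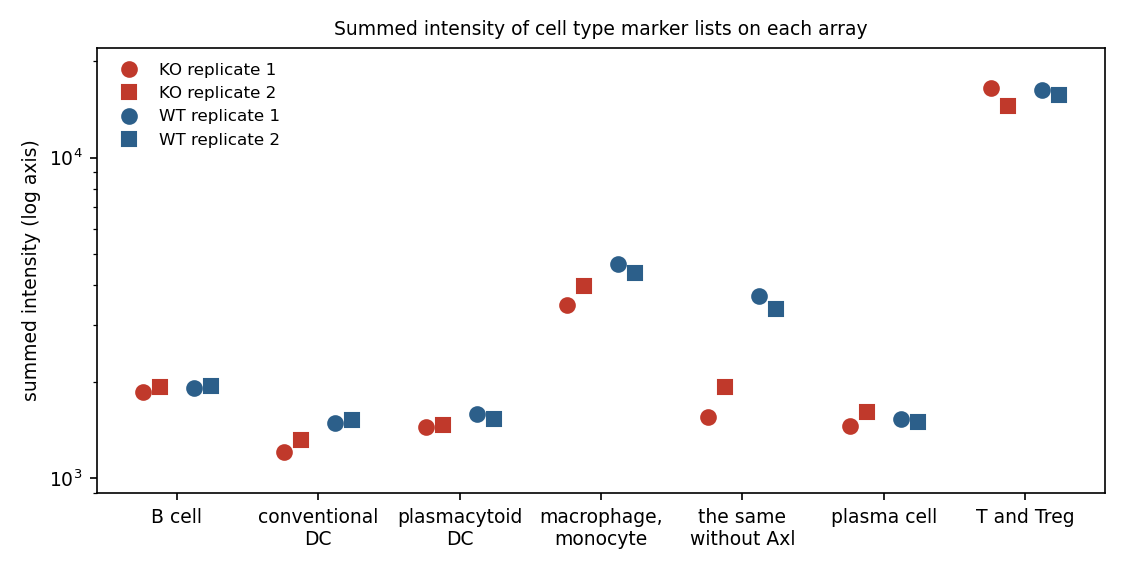
Summed linear intensity of each cell type marker list (vertical log axis) on the 2 CYLD KO arrays (red, left) and the 2 WT arrays (blue, right) of each list; circles are replicate 1 and squares replicate 2, and the macrophage list is shown with and without Axl. The B cell sums are 1859 and 1934 in CYLD KO and 1916 and 1945 in WT, and the macrophage sums without Axl are 1553 and 1931 in CYLD KO, below 3697 and 3365 in WT.

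Among 8 tested conventional dendritic cell markers 0 were higher and 1 was lower, and the summed intensity of 12 was 1212 and 1323 in CYLD KO and 1486 and 1520 in WT. The lower one was Sirpa, an inhibitory receptor shared with macrophages, at 110 and 181 in CYLD KO and 401 and 403 in WT (log2 fold change -1.51, adjusted p = 2.20e-16). Without Sirpa, left out after its value was seen, the other 11 summed to 1102 and 1142 in CYLD KO and 1085 and 1117 in WT, and the groups overlapped. Zbtb46, a transcription factor of conventional dendritic cells, had a log2 fold change of 0.29 (adjusted p = 0.337) and Naaa, a lysosomal amidase, of -0.23 (adjusted p = 0.480). Of 6 plasmacytoid dendritic cell markers 0 were higher and 1, Pacsin1, was lower (log2 fold change -0.56, adjusted p = 0.0152), which did not pass without either WT array (adjusted p = 0.345 without replicate 1 and 0.179 without replicate 2). The summed intensity of that list was 1442 and 1467 in CYLD KO and 1590 and 1534 in WT. Of that list Ccr9, a homing receptor, and Cox6a2 had log2 fold changes of 0.07 and -0.02. Of 3 tested plasma cell markers, Xbp1, Irf4 and Jchain, limma called 0, and 0 had an unadjusted p under 0.05; the 6 measured summed to 1459 and 1608 in CYLD KO and 1533 and 1501 in WT. Of 8 T and Treg identity genes limma called 0, with 1 at an unadjusted p under 0.05: Cd3e had a log2 fold change of 0.01, Il2ra of -0.45 (adjusted p = 0.0831) and Cd4 of 0.11. Their sum was 16494 and 14501 in CYLD KO and 16258 and 15665 in WT.

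Single markers differed between the knockout arrays in both directions. Chosen after their values were seen, Ighm, the immunoglobulin M heavy chain, read 130 and 199 on knockout replicates 1 and 2, Jchain 136 and 205, Itgax, which encodes CD11c, 72.2 and 109, and Lyz2, lysozyme of myeloid cells, 76.1 and 130.1. In WT Ighm read 122 and 116, Jchain 150 and 119, Itgax 78.2 and 74.6, and Lyz2 102 and 104. Their log2 differences between the knockout arrays, 0.62, 0.58, 0.58 and 0.77, were close to or above those of the class II chains. Others of the marker lists, also chosen after their values were seen, read lower on knockout replicate 2. Ms4a1 read 62.6 and 50.1 on knockout replicates 1 and 2, Pou2af1 179 and 159, Batf3 108 and 95.1, and Cd14 70.2 and 59.0. Of the 19 macrophage markers 16 were higher on knockout replicate 2. The same held for 8 of 18 B cell, 6 of 12 conventional dendritic cell, 2 of 6 plasmacytoid dendritic cell and 4 of 6 plasma cell markers, and for 0 of 8 T and Treg identity genes, against 46.2% of all tested genes. The part of these cells in the values of H2-Aa, H2-Ab1 and H2-Eb1 was not tested. For Cd74 the log2 fold change was 1.66 without knockout replicate 2, and for H2-Ob it was -1.05.

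The factors that bind class II promoters were mostly not called. Of 10 promoter factors and cofactors 0 were higher and 1 was lower, with a median log2 fold change of -0.10. The lower one was Kat2b, a histone acetyltransferase, at 440 and 319 in CYLD KO and 533 and 573 in WT (log2 fold change -0.56, adjusted p = 0.0165). Kat2b did not pass without knockout replicate 2 (adjusted p = 0.324), WT replicate 1 (0.181) or WT replicate 2 (0.327). The coactivators Crebbp and Ep300 had log2 fold changes of -0.18 and -0.05. The RFX subunits Rfx5, Rfxank and Rfxap, named for their role after their values were seen, had 0.28, 0.06 and -0.09, and none passed.

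Genes that induce or repress Ciita moved both ways. Of 9 tested, 2 were higher and 1 was lower. Prdm1, which encodes BLIMP-1, a repressor of Ciita in plasma cells, read 692 and 624 in CYLD KO and 401 and 341 in WT (log2 fold change 0.83, adjusted p = 5.07e-05). Ifng, the cytokine that induces Ciita in many cells, read 280.0 and 194 in CYLD KO and 153 and 149 in WT (log2 fold change 0.63, adjusted p = 0.00491). Ifngr2, a chain of its receptor, read 330.1 and 323 in CYLD KO and 503 and 428 in WT (log2 fold change -0.50, adjusted p = 0.0388). Prdm1 had an adjusted p = 0.0693 without WT replicate 2. Ifng had 0.160, 0.133 and 0.170 without knockout replicate 1, WT replicate 1 and WT replicate 2, and Ifngr2 had 0.0777, 0.622 and 0.156 without knockout replicate 2, WT replicate 1 and WT replicate 2. Blocking on replicate number gave 0.0579 for Ifngr2.

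Of 8 genes of endosomal antigen processing 1 was higher and 1 lower, with a median log2 fold change of 0.09. Ifi30, the thiol reductase GILT, read 415 and 483 in CYLD KO and 331 and 307 in WT (log2 fold change 0.49, adjusted p = 0.0482). Lgmn, an asparaginyl endopeptidase, read 230.2 and 255 in CYLD KO and 365 and 341 in WT (log2 fold change -0.54, adjusted p = 0.0222). Ctss, the protease that completes invariant chain degradation, read 1821 and 1871 in CYLD KO and 1412 and 1476 in WT and did not pass (log2 fold change 0.35, adjusted p = 0.213). Ifi30 had adjusted p-values of 0.227, 0.309 and 0.443 without knockout replicate 2, WT replicate 1 and WT replicate 2, and 0.0704 when replicate number was a block. Lgmn had 0.0695, 0.431 and 0.194 without knockout replicate 1, WT replicate 1 and WT replicate 2.

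Genes of class II turnover and the partners of CD74 had 2 of 6 tested members higher and 0 lower. Cxcr4, a chemokine receptor that can pair with CD74 in MIF signalling, read 867 and 832 in CYLD KO and 445 and 440.1 in WT (log2 fold change 0.94, adjusted p = 2.22e-06) and passed without any single array. Cd83, which protects class II from ubiquitin-driven turnover, read 1125 and 1136 in CYLD KO and 754 and 734 in WT (log2 fold change 0.60, adjusted p = 0.00772). Without WT replicate 1 and WT replicate 2 Cd83 had adjusted p-values of 0.164 and 0.204. Cd44, the signalling partner of CD74, had a log2 fold change of 0.35 (adjusted p = 0.216). Cd4 and Lag3, the T cell receptors that bind class II, had log2 fold changes of 0.11 and 0.09, with 0 of the 2 called by limma and 0 at an unadjusted p under 0.05.

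The costimulatory ligands that presenting cells use beside class II were all called, 3 of 4 higher and 1 lower. Cd80 read 623 and 625 in CYLD KO and 255 and 228 in WT (log2 fold change 1.37, adjusted p = 1.85e-13) and passed without any single array. Icosl, the ligand of ICOS, read 137 and 121 in CYLD KO and 90.9 and 78.7 in WT (log2 fold change 0.61, adjusted p = 0.00722). Cd40 read 103 and 107 in CYLD KO and 67.1 and 76.2 in WT (log2 fold change 0.55, adjusted p = 0.0188). Cd86, which like Cd80 encodes a ligand of CD28 and CTLA-4, read 183 and 233 in CYLD KO and 339 and 329 in WT (log2 fold change -0.69, adjusted p = 0.00135). Icosl, Cd40 and Cd86 did not pass without WT replicate 1 (adjusted p = 0.0728, 0.495 and 0.110) or WT replicate 2 (0.332, 0.133 and 0.0685), and Cd40 did not without knockout replicate 2 (0.0514).

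The MHC class I pathway served as the nearest comparison. Its heavy chain genes H2-K1 and H2-D1 had no probe set annotated with their symbol alone and were not measured. Of its 11 tested genes limma called 0, and the median log2 fold change was 0.11. The class II members had 4 higher and 1 lower of 7 and a median of 0.57. In the class I list 2 genes had an unadjusted limma p under 0.05, and both were named after their values were seen. They were Psmb9 (log2 fold change 0.39, adjusted p = 0.152) and Tapbp (0.37, adjusted p = 0.187). Both CYLD KO arrays were above both WT arrays in 5 of the 11, against 22.5% of all tested genes. They were below both in 0, against 26.2%. B2m, the class I light chain, read 4021 and 3720 in CYLD KO and 4000.1 and 3738 in WT. Tap1, a subunit of the peptide transporter, and Calr, a chaperone of class I assembly, had log2 fold changes of 0.11 and 0.09. Nlrc5, the class I counterpart of CIITA, named after its value was seen, had -0.18 (adjusted p = 0.596). The difference between the 2 groups of genes was not tested.

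The genes whose centred log2 values over the 4 arrays lay nearest to the mean of the 7 tested members, by Euclidean distance, were Rps27l, Aaas, 1810055G02Rik, Slc1a5, Tspan17, H2bc8, Serinc5 and Dnph1, at distances of 0.02 to 0.05. Rps27l, the nearest, read 366 and 461 in CYLD KO and 312 and 288 in WT. Their log2 fold changes were 0.39 to 0.45 and their adjusted p-values 0.0781 to 0.159, so none of the 8 passed. With 4 arrays, many genes can lie this near, and the likeness is a description only.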

How the data were processed

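The authors' deposited table holds 1 linear intensity per probe set and array for 35557 probe sets; the scale was read from the values (26.6 to 7205), and background correction, summarisation and scaling are not given in the sources used here. Per the labels' protocols, RNA was column-purified and labelled as biotinylated cRNA. Probe sets were named from a 2016 platform annotation: 21789 had 1 symbol, 1621 several and 12147 none listed. Each of the 19938 genes was represented by its brightest probe set.

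Intensities were converted to log2(value + 1), and folds are on that scale. The 13956 genes whose mean exceeded 6.29, the 30th percentile, were tested with limma 3.58.1 in R 4.3.3 (lmFit, eBayes, Benjamini-Hochberg). Prior degrees of freedom were infinite. The test was tried on simulated data. The 15 planned and 1 added alternatives are given in the closing section.

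The members and lists were chosen with earlier results of these data known. All members were named; of each other list, up to 5 called genes with the largest change and, where fewer than 3 were called, the brightest up to 3, plus the 8 genes most like the members. Of list genes, those without a probe set of 1 symbol were not measured here. Same-numbered replicates did not deviate together (r = -0.09 across 13956 genes).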

Additional observations from a re-analysis of the deposited data

How the results depend on the processing

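The numbers of members higher and lower, 4 and 1, were the same under the other filters, pseudocount, trend, robust, array-weight, median-centring and probe-set settings; quantile normalization gave 5 higher. With no pooling of variances between genes limma called 0 members higher and 0 lower, with 1 and 1 at an unadjusted p under 0.05, 0 pathway list genes higher and 0 lower (10 and 2 unadjusted), and 0 marker list genes higher and 0 lower (3 and 17 unadjusted). It also called 0 of all 13956 genes, with 842 higher and 972 lower at an unadjusted p under 0.05. That fit has 2 residual degrees of freedom per gene. Leaving out each array in turn gave 1 to 5 members higher and 1 lower, a median log2 fold change of the members of 0.26 to 0.83 (0.26 without knockout replicate 2), 2 to 8 pathway list genes higher and 0 to 3 lower (8 and 4 with all arrays; 12 and 5 with an intensity trend), and 1 to 4 marker list genes higher and 12 to 18 lower (1 and 16 with all arrays). Over genes above the median intensity, where fewer markers were tested, 10 marker list genes were lower. Over all genes, 254 to 898 were higher and 110 to 768 lower with an array left out, against 669 and 489. In a fit blocked on replicate number, whose pairing the labels do not explain, 4 members were higher and 1 lower, with a median of 0.57, 7 pathway list genes were higher and 3 lower, and 1 and 16 marker list genes; the calls of the members did not change. No direction of a called member was reversed.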
